A study of Mus musculus with 9 samples.

Results

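The genes described here are 35 genes of glycolysis and of the response to low oxygen: glucose transporters, glycolytic enzymes, lactate and pyruvate genes, the oxygen-regulated transcription factors with the enzymes that sense oxygen, and well-known targets of those factors. A gene was included when a probe set carried its symbol and no other. Where several did, the one with the highest mean over all 9 arrays was used. Of the 35 listed genes, 28 were measured in this way, by 43 probe sets, among 19147 genes in all. Gpi1, Aldoa, Pgam1, Eno1, Ldhb, Egln3 and Bnip3 had no probe set with that single symbol and were not analysed here. The Gapdh probe set used was derived from an expressed sequence tag, and 5 further probe sets that carry Gapdh together with Gm5523 were not used.

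Total RNA of C57BL/6 mouse brain, described as cerebellum at postnatal day 5, was measured on 1 custom Affymetrix array per mouse, in 3 SmoA2 mice, 3 Smo/Smo mice and 3 wild-type mice. The SmoA2 mice carry a transgene for an activated mutant of Smoothened, which relays the Sonic hedgehog (Shh) signal inside the cell. A fragment of the Neurod2 (ND2) promoter drives it in the precursors of granule neurons. Smo/Smo is all that the labels say of the second line. Because the design text also describes SmoA1 mice made with this promoter, Smo/Smo was read as SmoA1, which no label states. No other allele or agent is given for any group, and the labels do not say whether wild-type mice were littermates. SmoA2 and wild-type samples share a code prefix in their titles and Smo/Smo samples carry another. The labels do not say what the prefix marks. In comparisons with Smo/Smo, genotype and whatever the prefix marks cannot be told apart.

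The arrays were close to each other, with medians of 91.0 to 95.1 intensity units and correlations of 0.994 to 0.998 between any pair across probe sets. The precision of each value is limited by the number of arrays. Granule lineage and Purkinje cell markers were well above background in every array. Wild-type replicate 3 stood apart in choroid plexus, the tissue that makes cerebrospinal fluid: its marker Ttr had log2 intensities of 11.74, 11.84 and 11.93 in SmoA2 mice, 12.14, 12.03 and 12.04 in Smo/Smo mice, and 11.39, 11.26 and 4.95 in wild-type mice. The 6 choroid plexus markers summed to 6474 to 7637 units in SmoA2 mice, 7560 to 8377 in Smo/Smo mice and 1627 to 4946 in wild-type mice. By limma 0 of these 6 were called in SmoA2 against wild type, with 5 at an unadjusted p under 0.05, and differences of the genes studied here that rest on that array are given with and without it. SmoA2 replicate 3 had the lowest array weight in limma, 0.386. From Xist and Y-linked probe sets, 1 of 3 mice was female in SmoA2, 1 of 3 in Smo/Smo and 2 of 3 in wild type.

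Glycolysis splits glucose into pyruvate. Hexokinases trap glucose in the cell, phosphofructokinases commit it to the pathway, lactate dehydrogenase turns pyruvate into lactate, and pyruvate dehydrogenase kinases hold pyruvate back from the mitochondria. When oxygen falls, prolyl hydroxylases such as Egln1 stop marking Hif1a and Epas1 for destruction, and these factors switch on genes of glucose uptake, glycolysis, blood vessel growth and pH control. In the newborn cerebellum granule neuron precursors divide under Shh and are known for glycolysis in the presence of oxygen, with Hk2 as the hexokinase that Shh raises in cultured precursors.

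Promoter sequences of 3 genes that differed between the groups are shown because the hypoxia factors are known to bind a short core, ACGTG or GCGTG. Each runs 5′ to 3′ on the strand of its gene and is the RefSeq window (GRCm38.p6) of 300 bases at the start of the gene, most of it upstream. Capitals mark matches to the core on either strand, so that a match on the other strand reads CACGT or CACGC, and overlapping matches run together. The Hk2 promoter lies at chr6:82774405-82774704 on the minus strand, that of Slc16a1 at chr3:104638414-104638713 on the plus strand and that of Car9 at chr4:43506776-43507075 on the plus strand.
Hk2: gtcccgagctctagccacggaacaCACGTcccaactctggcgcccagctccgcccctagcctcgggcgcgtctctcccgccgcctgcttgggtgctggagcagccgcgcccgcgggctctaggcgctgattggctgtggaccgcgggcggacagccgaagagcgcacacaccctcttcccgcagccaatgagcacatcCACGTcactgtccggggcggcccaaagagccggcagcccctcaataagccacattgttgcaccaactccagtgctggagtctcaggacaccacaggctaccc
Slc16a1: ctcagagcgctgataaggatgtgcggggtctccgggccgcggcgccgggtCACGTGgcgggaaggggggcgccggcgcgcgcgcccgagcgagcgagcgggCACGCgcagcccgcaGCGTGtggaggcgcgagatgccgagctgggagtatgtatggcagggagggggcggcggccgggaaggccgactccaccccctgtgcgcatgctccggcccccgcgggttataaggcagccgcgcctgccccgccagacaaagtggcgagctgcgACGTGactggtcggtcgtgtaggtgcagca
Car9: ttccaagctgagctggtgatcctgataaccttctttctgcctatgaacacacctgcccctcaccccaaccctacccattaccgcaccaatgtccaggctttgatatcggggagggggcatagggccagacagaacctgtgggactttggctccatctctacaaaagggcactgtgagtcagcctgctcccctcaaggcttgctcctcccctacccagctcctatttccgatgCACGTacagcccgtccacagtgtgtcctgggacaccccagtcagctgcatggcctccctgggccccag
The core was found at 2 places in the Hk2 promoter, starting at bases 25 and 199 of the 300 bases shown, and at 1 in that of Car9, at base 233. The Slc16a1 promoter has 5 matches in 4 marked stretches, since its CACGTG matches on both strands. RefSeq promoters were found for 25 of the 28 measured genes, with 34 promoters in all. None was found for Slc2a3, Epas1 or Ndrg1, so that of Ndrg1, which also differed between the groups, is not shown. The core was present in 27 of these 34 promoters, which covered 23 of the 25 genes, and in 43.8% of all 32851 promoters. ACGTG overlaps the E-box CACGTG, which was found in 5 of the 34 promoters and in 7.15% of all. GACCACCCA, the consensus of the Gli factors that act at the end of the Shh pathway, was found in 0 of the 34 and in 0.253% of all. These matches describe letters in a window and do not show binding. Some genes had several promoters, and some of those of Pfkm overlapped. Base composition was not matched between these promoters and all promoters, and the shares were not compared by a test.

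Few glycolysis and hypoxia genes differed between SmoA2 and wild type, and those that did were not all in the same direction. Hk2, a hexokinase of dividing and glycolytic cells, was higher in SmoA2 mice. Slc16a1, a transporter of lactate and pyruvate, Car9, a carbonic anhydrase at the cell surface, and Ndrg1, a stress-response gene, were lower. So 1 of the 28 measured genes rose, against 0.961% of all genes tested, 3 fell, against 1.73% of all genes, and 24 did not pass the test. A gene was called when its p, adjusted by Benjamini-Hochberg over all 19147 genes, was under 0.05 in a limma fit of the log2 intensities of all 9 arrays. These 28 genes had a median log2 difference of -0.04 (SmoA2 minus wild type), with 10 above and 18 below 0, beside 0.01 for all genes. In bulk RNA, fewer cells of a type and less RNA per cell cannot be told apart. The mice are separate animals. Each p-value sets a difference against the spread between mice within groups, pooled over the 3 groups and moderated by limma over all genes.

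**Figure D1:**
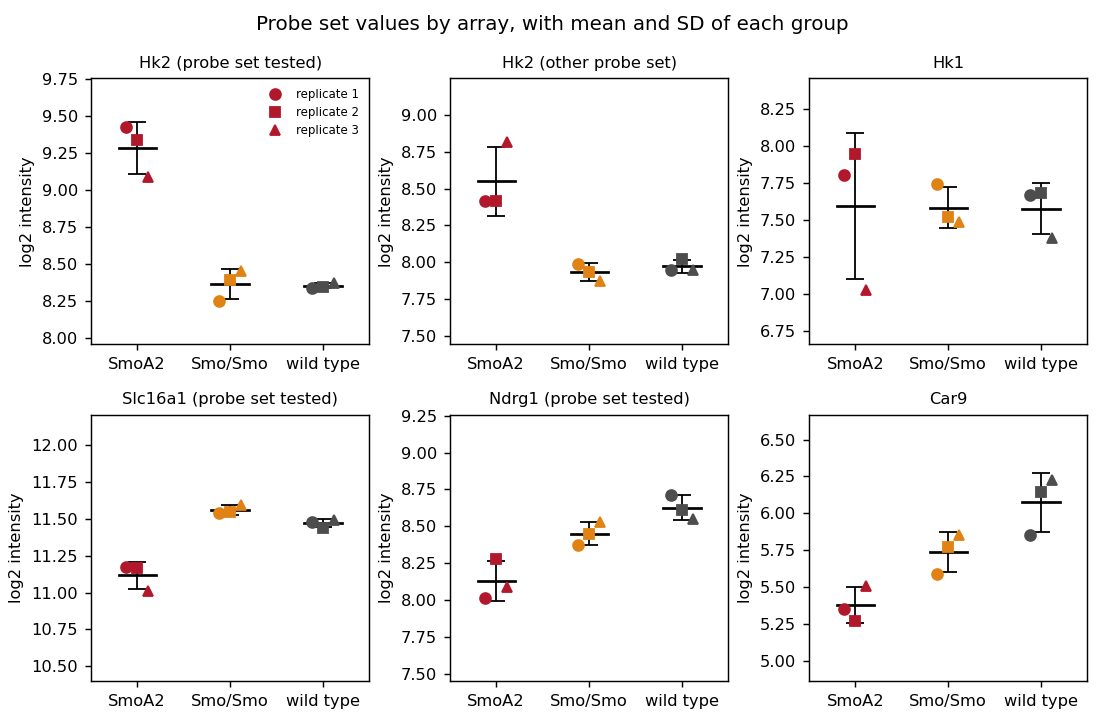
Log2 intensity (vertical axis, the same span in each panel) of Hk2 on both of its probe sets, Hk1, Slc16a1, Ndrg1 and Car9 in each array of SmoA2, Smo/Smo and wild type, with the mean and SD of each group (n = 3). On both Hk2 probe sets the 3 SmoA2 arrays lie above all others, while Slc16a1, Ndrg1 and Car9 are lowest in the SmoA2 arrays and the Hk1 groups overlap.

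Hk2 had log2 intensities of 9.43, 9.34 and 9.09 in SmoA2 mice, 8.25, 8.39 and 8.45 in Smo/Smo mice, and 8.34, 8.34 and 8.37 in wild-type mice. All 3 SmoA2 arrays were above the other 6, and the Smo/Smo arrays lay on both sides of wild type. On the linear scale these were 689, 646 and 544 units in SmoA2 mice, 304, 335 and 350 units in Smo/Smo mice, and 324, 325 and 331 units in wild-type mice. Hk2 was thus 1.91-fold higher in SmoA2 than in wild type (log2 fold change 0.93 ± 0.09, SE, n = 3 per group, 95% interval 0.73 to 1.14, limma adjusted p = 0.00114). It was the 38th largest of 184 rises in this comparison. In Smo/Smo mice the difference from wild type was 0.01 ± 0.09 (95% interval -0.20 to 0.22, limma adjusted p = 0.984). The lines themselves differed: Hk2 was 1.89-fold higher in SmoA2 than in Smo/Smo (0.92 ± 0.09, 95% interval 0.71 to 1.13, limma adjusted p = 0.00174), the 31st largest of 196 rises.

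The other Hk2 probe set had log2 intensities of 8.41, 8.42 and 8.82 in SmoA2 mice, 7.99, 7.94 and 7.87 in Smo/Smo mice, and 7.95, 8.02 and 7.95 in wild-type mice. SmoA2 was again above the other groups in every array. Where each probe set was tested on its own, this one gave 0.58 ± 0.11 for SmoA2 minus wild type (limma adjusted p = 0.0245), -0.04 for Smo/Smo minus wild type (limma adjusted p = 0.954) and 0.62 for SmoA2 minus Smo/Smo (limma adjusted p = 0.0201). Both Hk2 differences kept their call without any single array. Without 1 array, SmoA2 minus wild type lay between 0.86 and 1.03, and its adjusted p between 0.000732 and 0.00816.

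Hk1, the main hexokinase of the adult brain, was variable. It had log2 intensities of 7.81, 7.95 and 7.03 in SmoA2 mice, 7.75, 7.52 and 7.49 in Smo/Smo mice, and 7.67, 7.68 and 7.38 in wild-type mice. SmoA2 replicate 3 was the lowest array and the 3 groups overlapped. The difference between SmoA2 and wild type was 0.02 ± 0.21 (95% interval -0.46 to 0.50, limma adjusted p = 0.982), the widest interval among the 28 genes. Smo/Smo differed from wild type by 0.01 ± 0.21, and SmoA2 from Smo/Smo by 0.01 ± 0.21. For SmoA2 against Smo/Smo the 95% interval was -0.47 to 0.49. In SmoA2 against wild type and against Smo/Smo, a change of Hk1 as large as that of Hk2 lay outside the interval.

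The Shh pathway and its cells were read beside Hk2. Gli1, the target factor of the pathway, was 0.50 ± 0.07 higher on the log2 scale in SmoA2 than in wild type (limma adjusted p = 0.00801) and 0.42 ± 0.07 higher than in Smo/Smo (limma adjusted p = 0.0205). Ptch1, the Shh receptor, was 0.26 ± 0.05 higher than in wild type (limma adjusted p = 0.0371), and Ccnd1, a cyclin of G1, 0.96 ± 0.15 higher (limma adjusted p = 0.0116). Neither was called against Smo/Smo, with Ptch1 0.18 higher in SmoA2 (limma adjusted p = 0.140) and Ccnd1 0.28 higher (limma adjusted p = 0.465). In Smo/Smo, Ccnd1 was 0.68 above wild type (limma adjusted p = 0.161), a difference called in 3 of 12 other settings. Atoh1, the factor of granule neuron precursors, was 0.82 ± 0.07 higher than in wild type (limma adjusted p = 0.000703) and 0.70 ± 0.07 higher than in Smo/Smo (limma adjusted p = 0.00189). The Atoh1 calls held without any single array, as did that of Gli1 against wild type. Gli1 against Smo/Smo lost its call in 4 of 9 such fits (adjusted p up to 0.0890), without SmoA2 replicate 1 or any Smo/Smo array. Against wild type, Ptch1 lost its call in 9 of 9 (adjusted p 0.0650 to 0.123) and Ccnd1 without wild-type replicate 2 (0.0501). Of 6 Shh targets 5 were called higher in SmoA2 and 0 in Smo/Smo, both against wild type by limma, with 2 in Smo/Smo at an unadjusted p under 0.05. The 6 markers of the granule neuron lineage summed to 22056 to 22856 intensity units in SmoA2 mice, 22162 to 23514 in Smo/Smo mice and 22282 to 22790 in wild-type mice. The sums overlapped between the groups. The mean log2 of the same 6 markers, in which each gene counts equally, was 11.53 to 11.61 in SmoA2 mice, 11.48 to 11.55 in Smo/Smo mice and 11.45 in each wild-type mouse, with SmoA2 above wild type in every array. The markers did not rise as a set: in SmoA2 minus wild type 3 were above and 3 below 0, with a median of 0.00. Atoh1 was the only one called, and the others ran from -0.20 for Neurod1 to 0.17 for Barhl1. The part of precursor number in the Hk2 difference was not tested.

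The other glycolytic enzymes did not pass the test in SmoA2 against wild type. Of 14 listed enzymes 10 were measured, Hk2 was called, and the other 9 lay between -0.23 and 0.08 on the log2 scale. The phosphofructokinases, which commit sugar to glycolysis, gave 0.03 for Pfkl, -0.07 for Pfkm and -0.04 for Pfkp. At the later steps the values were -0.09 for Tpi1, 0.08 for Gapdh, -0.01 for Pgk1, -0.23 for the neuronal enolase Eno2 and 0.08 for Pkm, the pyruvate kinase. Gapdh was higher in all 3 SmoA2 arrays than in wild type, by a difference whose 95% interval was -0.05 to 0.21. Its probe set was dim, with mean log2 intensities of 6.75 in SmoA2, 6.73 in Smo/Smo and 6.67 in wild type. Whether it reports the main Gapdh transcript was not tested. Pgk1 had log2 intensities of 12.82, 12.92 and 12.92 in SmoA2 mice, 12.93, 12.93 and 12.93 in Smo/Smo mice, and 12.90, 12.85 and 12.92 in wild-type mice. It varied little within or between groups, and its 95% interval for SmoA2 minus wild type was -0.13 to 0.11.

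Eno2 had log2 intensities of 9.63, 9.97 and 9.68 in SmoA2 mice, 10.41, 10.08 and 9.97 in Smo/Smo mice, and 10.00, 10.04 and 9.92 in wild-type mice. Smo/Smo replicate 1 was the highest and SmoA2 replicate 1 the lowest, and neighbouring groups overlapped. The difference was -0.23 ± 0.13 for SmoA2 minus wild type (limma adjusted p = 0.448), 0.17 ± 0.13 for Smo/Smo minus wild type (0.779) and -0.39 ± 0.13 for SmoA2 minus Smo/Smo (95% interval -0.68 to -0.11, limma adjusted p = 0.170). Eno2 is an enzyme of maturing neurons. Pfkl had 6.95, 7.23 and 7.30 in SmoA2 mice, 7.36, 7.46 and 7.30 in Smo/Smo mice, and 7.16, 6.98 and 7.27 in wild-type mice. All 3 Smo/Smo arrays were above wild type, with a difference of 0.24 ± 0.11 that did not pass (limma adjusted p = 0.577). The other Pfkl probe set gave 0.03 for Smo/Smo minus wild type and -0.11 for SmoA2 minus wild type, neither called.

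Glucose transporters gave no call. Slc2a1, the transporter of the blood-brain barrier and of many dividing cells, had log2 intensities of 10.73, 10.93 and 10.86 in SmoA2 mice, 11.09, 11.02 and 11.01 in Smo/Smo mice, and 10.90, 10.86 and 10.93 in wild-type mice. The Smo/Smo arrays were above all the others, and SmoA2 overlapped wild type. The difference between SmoA2 and wild type was -0.06 ± 0.06 (limma adjusted p = 0.740), that between Smo/Smo and wild type 0.14 ± 0.06 (limma adjusted p = 0.590), and that between SmoA2 and Smo/Smo -0.20 ± 0.06 (95% interval -0.34 to -0.05, limma adjusted p = 0.188). Slc2a3, the neuronal transporter, was 10.16, 10.24 and 9.78 in SmoA2 mice, 10.12, 10.15 and 10.09 in Smo/Smo mice, and 10.16, 10.14 and 10.20 in wild-type mice. SmoA2 replicate 3 was low and the other arrays lay close together (SmoA2 minus wild type -0.11 ± 0.11). Pfkfb3, which makes the activator of phosphofructokinase, was lower in every SmoA2 array (7.00, 7.20 and 7.03) than in wild type (7.26, 7.27 and 7.22), by -0.17 ± 0.08 (limma adjusted p = 0.351).

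**Figure D2:**
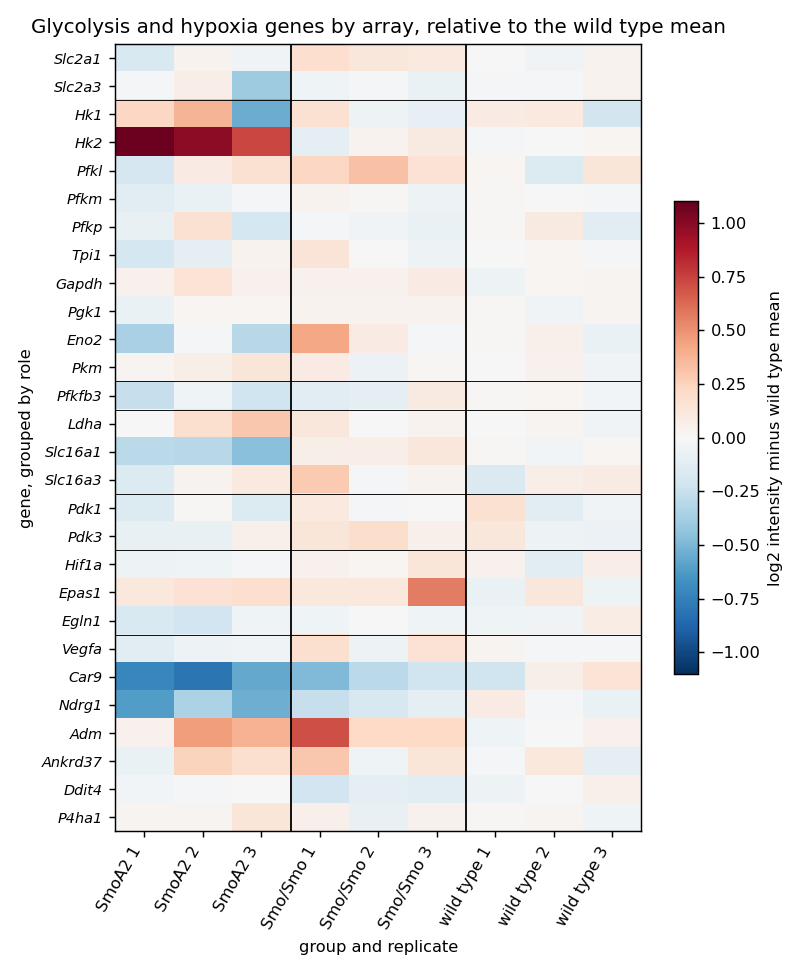
Log2 intensity of each of the 28 measured genes (rows, grouped by role) in each array (columns), as the difference from the wild-type mean of that gene (colour, red higher and blue lower). Hk2 is red in the 3 SmoA2 arrays, Slc16a1, Car9 and Ndrg1 are blue there, and most other cells are pale.

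Of the lactate genes 3 of 4 were measured, and Slc16a1 was called. Slc16a1 had log2 intensities of 11.17, 11.17 and 11.01 in SmoA2 mice, 11.54, 11.55 and 11.59 in Smo/Smo mice, and 11.48, 11.44 and 11.49 in wild-type mice. All SmoA2 arrays were below all the others, and the Smo/Smo arrays were above wild type. It was 1.28-fold lower in SmoA2 than in wild type (-0.35 ± 0.06, SE, n = 3 per group, 95% interval -0.49 to -0.21, limma adjusted p = 0.0188) and 1.36-fold lower than in Smo/Smo (-0.44 ± 0.06, 95% interval -0.58 to -0.30, limma adjusted p = 0.00774). Smo/Smo minus wild type was 0.09 ± 0.06 (limma adjusted p = 0.751). The call against wild type rested on the wild-type arrays: the adjusted p was 0.0829 without wild-type replicate 1, 0.0585 without replicate 2 and 0.0686 without replicate 3. The call against Smo/Smo held without any single array, with adjusted p between 0.0140 and 0.0415. The other Slc16a1 probe set averaged 4.10 in SmoA2 mice, 4.31 in Smo/Smo mice and 3.90 in wild-type mice, inside the 2.23 to 5.57 that Y-linked probe sets gave in female mice as an indication of background, and was not read further.

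Slc16a1 is known to be strong in brain endothelium. The summed intensity of 8 endothelial and mural markers was 5643 to 5981 units in SmoA2 mice, 6879 to 7093 in Smo/Smo mice and 6465 to 6568 in wild-type mice. In SmoA2 minus wild type 5 of the 8 were below 0 and 3 above, with a median of -0.15. Of these 8, 2 were called lower in SmoA2 than in wild type, Kdr (-0.30, limma adjusted p = 0.0401) and Tek (-0.29, limma adjusted p = 0.0267), and 3, Cldn5, Kdr and Tek, were called lower than in Smo/Smo. Against wild type the call of Kdr was lost in 9 of 9 fits without 1 array (adjusted p up to 0.125) and that of Tek in 7 (up to 0.126). Against Smo/Smo, Cldn5 lost it in 8 (up to 0.157), Kdr in 3 (up to 0.0828) and Tek in 2 (up to 0.0636). The part of these cells in the Slc16a1 difference was not tested. Ldha, which makes lactate from pyruvate, had log2 intensities of 12.03, 12.21 and 12.32 in SmoA2 mice, 12.15, 12.03 and 12.07 in Smo/Smo mice, and 12.04, 12.06 and 11.99 in wild-type mice. On this probe set the groups overlapped, and SmoA2 minus wild type was 0.16 ± 0.08 (95% interval -0.02 to 0.33, limma adjusted p = 0.414). On its other 2 probe sets Ldha gave 0.21 and 0.16 for SmoA2 minus wild type and 0.21 and 0.25 for Smo/Smo minus wild type, none called. On the first of these, both mutant lines were above wild type in every array. On the second, Smo/Smo was above wild type in every array and SmoA2 overlapped it. Slc16a3, the lactate exporter of glycolytic cells, gave -0.00 ± 0.11 for SmoA2 minus wild type and 0.10 ± 0.11 for Smo/Smo minus wild type.

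The pyruvate dehydrogenase kinases gave no call. Pdk1, a known target of Hif1a, was at -0.10 ± 0.09 for SmoA2 minus wild type and -0.12 ± 0.09 for SmoA2 minus Smo/Smo. Pdk3 was at -0.03 ± 0.07 and -0.16 ± 0.07 in the same comparisons, and its SmoA2 arrays (9.45, 9.45 and 9.58) lay below all Smo/Smo arrays (9.66, 9.72 and 9.59).

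The hypoxia factors and their sensor did not pass the test either. Hif1a, the oxygen-regulated subunit whose protein rather than mRNA is the usual point of control, had log2 intensities of 12.08, 12.08 and 12.11 in SmoA2 mice, 12.18, 12.16 and 12.27 in Smo/Smo mice, and 12.18, 12.01 and 12.21 in wild-type mice. SmoA2 lay below Smo/Smo in every array and inside the range of wild type (SmoA2 minus wild type -0.04 ± 0.07, 95% interval -0.19 to 0.11). Epas1, its relative known from blood vessels, differed by 0.15 ± 0.12 in SmoA2 and by 0.27 ± 0.12 in Smo/Smo, both against wild type, with Smo/Smo replicate 3 at 7.15 and the other 8 arrays between 6.52 and 6.77. The other 2 Epas1 probe sets gave -0.01 and -0.05 for Smo/Smo minus wild type, and -0.24 and 0.12 for SmoA2 minus wild type, none called, so that the direction depended on the probe set. Egln1, the prolyl hydroxylase that senses oxygen, was at 11.54, 11.50 and 11.66 in SmoA2 mice, 11.67, 11.70 and 11.66 in Smo/Smo mice, and 11.67, 11.68 and 11.79 in wild-type mice. Its SmoA2 arrays lay just below wild type (-0.14 ± 0.06, limma adjusted p = 0.337).

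Of the hypoxia targets 7 of 8 were measured, 2 fell in SmoA2 against wild type, against 1.73% of all genes, 0 rose, against 0.961%, and 5 did not pass. Car9 had log2 intensities of 5.36, 5.27 and 5.51 in SmoA2 mice, 5.59, 5.77 and 5.85 in Smo/Smo mice, and 5.85, 6.14 and 6.23 in wild-type mice. SmoA2 was below both other groups in every array, and Smo/Smo met wild type at the top of its range. Car9 was 1.62-fold lower in SmoA2 than in wild type (-0.69 ± 0.11, 95% interval -0.95 to -0.44, limma adjusted p = 0.0133). The SmoA2 mean of 5.38 lay within the background range of 2.23 to 5.57, so the size of this difference is uncertain. The other 27 genes had all group means above that range. Smo/Smo minus wild type was -0.34 ± 0.11 (95% interval -0.59 to -0.08, limma adjusted p = 0.419) and SmoA2 minus Smo/Smo was -0.36 ± 0.11 (limma adjusted p = 0.165). The Car9 call was lost without SmoA2 replicate 1 (limma adjusted p = 0.0522) or wild-type replicate 2 (0.0639).

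Ndrg1 had log2 intensities of 8.02, 8.28 and 8.09 in SmoA2 mice, 8.37, 8.45 and 8.53 in Smo/Smo mice, and 8.71, 8.61 and 8.55 in wild-type mice. The 3 groups did not overlap, with SmoA2 lowest and wild type highest. Ndrg1 was 1.41-fold lower in SmoA2 than in wild type (-0.50 ± 0.08, 95% interval -0.69 to -0.31, limma adjusted p = 0.0143). Smo/Smo minus wild type was -0.18 ± 0.08 (limma adjusted p = 0.597) and SmoA2 minus Smo/Smo was -0.32 ± 0.08 (limma adjusted p = 0.0868). The call against wild type was lost without SmoA2 replicate 1 (limma adjusted p = 0.0525), wild-type replicate 1 (0.0687) or wild-type replicate 2 (0.0584), and SmoA2 minus Smo/Smo passed without SmoA2 replicate 2 (-0.40, limma adjusted p = 0.0406). The other Ndrg1 probe set, with group means of 5.65 in SmoA2, 5.70 in Smo/Smo and 5.79 in wild type, gave -0.14 for SmoA2 minus wild type (limma adjusted p = 0.700). That probe set did not show the difference, but its group means lay just above the background range, which ends at 5.57.

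Markers of other cells of the cerebellum and its coverings were read beside Car9 and Ndrg1. The 6 markers of meninges and fibroblasts summed to 4503 to 5346 units in SmoA2 mice, 6306 to 6615 in Smo/Smo mice and 6851 to 7071 in wild-type mice, and 4 of 6 were called lower in SmoA2 than in wild type, while Dcn (-0.14) and Lum (0.38) did not pass. The 8 markers of Bergmann glia and astrocytes summed to 17644 to 18669 units in SmoA2 mice, 20923 to 21474 in Smo/Smo mice and 20693 to 21598 in wild-type mice, with 2 called lower and 6 not called. In SmoA2 minus wild type 6 of these were below 0 and 2 above, with a median of -0.25. The 6 Purkinje cell markers summed to 17617 to 20098 units in SmoA2 mice, 23434 to 23914 in Smo/Smo mice and 23075 to 24103 in wild-type mice, with 2 called lower and 4 not called. All 6 were below 0 in SmoA2 minus wild type, with a median of -0.49. Microglia and macrophage markers summed to 2064 to 2421 units in SmoA2 mice, 1858 to 2001 in Smo/Smo mice and 2149 to 2221 in wild-type mice. Against wild type 1 of these 6 was called lower in SmoA2, Mrc1, with 4 above 0 and a median of 0.15, and against Smo/Smo 1 was called higher and 1 lower, with a median of 0.38. Of 6 listed erythrocyte genes 3 were measured and 0 were called (0 at an unadjusted p under 0.05). The part of these cells in the differences of Car9, Ndrg1 and the other genes was not tested.

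The other hypoxia targets gave smaller differences. Vegfa, the growth factor of blood vessels, was at 10.51, 10.58 and 10.60 in SmoA2 mice, 10.81, 10.58 and 10.80 in Smo/Smo mice, and 10.67, 10.62 and 10.62 in wild-type mice. SmoA2 lay just below wild type in every array (-0.07 ± 0.07, 95% interval -0.24 to 0.09, limma adjusted p = 0.688). Adm, the vasodilator peptide adrenomedullin, was at 5.86, 6.27 and 6.19 in SmoA2 mice, 6.52, 6.03 and 6.03 in Smo/Smo mice, and 5.77, 5.81 and 5.85 in wild-type mice. Both mutant lines were above wild type in every array, by 0.29 ± 0.15 in SmoA2 (limma adjusted p = 0.398) and 0.38 ± 0.15 in Smo/Smo (limma adjusted p = 0.487), and neither passed. Ddit4, an inhibitor of mTORC1 under stress, was at 12.86, 12.86 and 12.88 in SmoA2 mice, 12.67, 12.78 and 12.77 in Smo/Smo mice, and 12.82, 12.89 and 12.94 in wild-type mice. Its Smo/Smo arrays were below the other groups (Smo/Smo minus wild type -0.14 ± 0.06, limma adjusted p = 0.510). Ankrd37 gave 0.12 ± 0.11 and P4ha1, a collagen prolyl hydroxylase, 0.07 ± 0.06 for SmoA2 minus wild type.

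**Figure D3:**
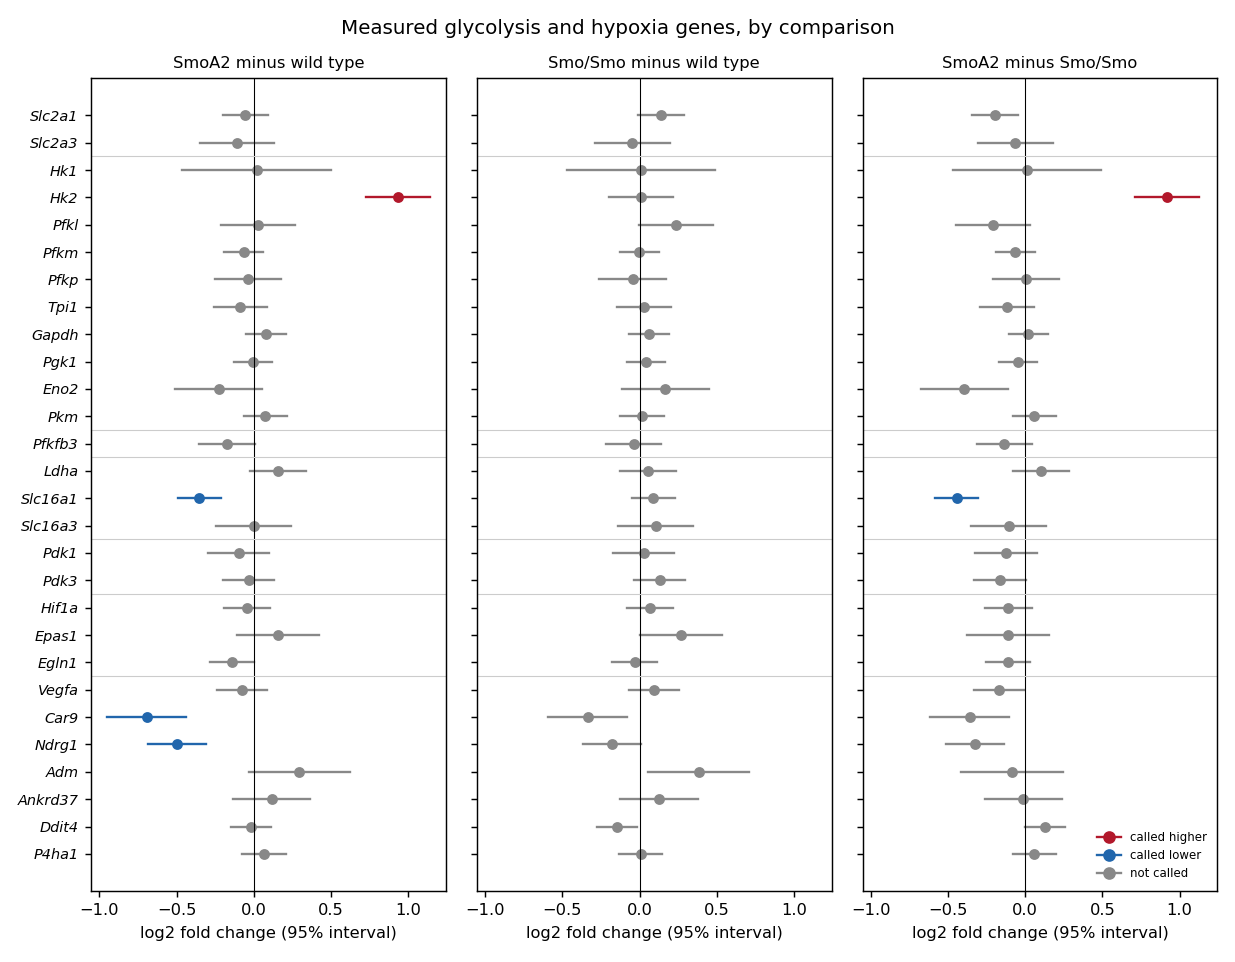
Log2 fold change of each of the 28 measured genes with its 95% interval (horizontal axis), in SmoA2 and then Smo/Smo against wild type, and in SmoA2 against Smo/Smo, with red points for genes called higher, blue for genes called lower and grey for genes not called by limma. Hk2 stands apart at 0.93 against wild type and 0.92 against Smo/Smo in the panels of SmoA2, and the points of Smo/Smo against wild type are all grey.

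Against wild type, Smo/Smo showed no called difference in these genes. Of the 28, 0 rose, against 0.214% of all genes, and 0 fell, against 0.157% (limma). At an unadjusted p under 0.05 there were 4, Epas1 (on the probe set used) and Adm higher and Car9 and Ddit4 lower, and the smallest adjusted p was 0.419. The log2 differences lay between -0.34 for Car9 and 0.38 for Adm, with a median of 0.03 beside 0.01 for all genes, and 20 above and 8 below 0. For 25 of the 28 the 95% interval lay within 0.5 of 0 on either side. With 3 mice per group, changes of a size that lies inside these intervals are not excluded.

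Between the lines, 1 of the 28 genes was higher in SmoA2 than in Smo/Smo, Hk2, against 1.02% of all genes, and 1 was lower, Slc16a1, against 1.54%. The other 26 lay between -0.39 for Eno2 and 0.13 for Ddit4, and the median of the 28 was -0.11, beside -0.00 for all genes, with 8 above and 20 below 0. In the moderated F test over the 3 groups 4 of the 28 passed, Hk2, Slc16a1, Car9 and Ndrg1, against 2.89% of all genes. SmoA2 and Smo/Smo are each set against the same wild-type arrays. The sign of the difference from wild type was opposite in the lines for 10 genes, Slc2a1, Tpi1, Pgk1, Eno2, Slc16a1, Slc16a3, Pdk1, Pdk3, Hif1a and Vegfa, of which Slc16a1 differed between the lines by the test. Among the 24 genes not called in SmoA2 against wild type, 22 had a 95% interval within 0.5 of 0.

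Groups that did not overlap were more frequent than calls. In SmoA2 against wild type the arrays of the groups did not overlap in 9 of the 28 genes (32.1%, against 19.1% of all genes), with Hk2, Gapdh and Adm higher and Pfkfb3, Slc16a1, Egln1, Vegfa, Car9 and Ndrg1 lower. In Smo/Smo against wild type this held for 8 (28.6%, against 15.9%), with Slc2a1, Pfkl, Gapdh, Pgk1, Slc16a1 and Adm higher and Ndrg1 and Ddit4 lower. In SmoA2 against Smo/Smo it held for 10 (35.7%, against 18.2%), with Hk2 and Ddit4 higher and Slc2a1, Pgk1, Slc16a1, Pdk3, Hif1a, Egln1, Car9 and Ndrg1 lower. The median SD within a group of the 28 genes was 0.11 in SmoA2, 0.08 in Smo/Smo and 0.05 in wild type, beside 0.11, 0.08 and 0.08 for all genes in the same groups. It was thus smaller than that of all genes in wild type, and its part in the count of groups without overlap was not tested. Differences under 0.25 in size made up 82.1% of the 28 genes in SmoA2 against wild type, beside 88.3% of all genes.

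Further genes of the same pathways were counted from 5 wider lists. Of 13 measured genes of glycolysis beyond the 35, 1 rose in SmoA2 against wild type, against 0.961% of all genes, 0 fell, against 1.73%, and 12 did not pass. That gene was Eno3, the muscle enolase, with log2 intensities of 8.76, 8.80 and 8.76 in SmoA2 mice, 8.59, 8.57 and 8.59 in Smo/Smo mice, and 8.49, 8.55 and 8.51 in wild-type mice. All 3 SmoA2 arrays were above the rest (0.26 ± 0.05 against wild type, limma adjusted p = 0.0299), and the call was lost in 8 of the 9 fits without 1 array, with adjusted p up to 0.132.

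Of 28 measured further hypoxia genes, 1 rose in SmoA2 against wild type, against 0.961% of all genes, 2 fell, against 1.73%, and 25 did not pass. Stc2, a secreted glycoprotein, was 0.39 ± 0.08 higher (limma adjusted p = 0.0401), at 6.23, 6.14 and 6.25 in SmoA2 mice, 6.10, 5.98 and 6.01 in Smo/Smo mice, and 5.77, 5.71 and 5.98 in wild-type mice. Lox, which crosslinks collagen, was -0.64 ± 0.10 (limma adjusted p = 0.0122), at 7.33, 7.57 and 7.17 in SmoA2 mice, 7.88, 7.68 and 7.80 in Smo/Smo mice, and 7.99, 8.05 and 7.94 in wild-type mice. Higd1a, a mitochondrial protein, was -0.29 ± 0.06 (limma adjusted p = 0.0390), at 10.89, 10.97 and 10.82 in SmoA2 mice, 11.15, 11.07 and 11.11 in Smo/Smo mice, and 11.14, 11.21 and 11.17 in wild-type mice. SmoA2 did not overlap wild type in these 3 genes. Without single arrays Stc2 and Higd1a each lost the call in 8 of 9 fits, with adjusted p up to 0.150 for Stc2 and 0.129 for Higd1a. Lox lost it without SmoA2 replicate 1 (0.0502), wild-type replicate 1 (0.0512) or wild-type replicate 2 (0.0594). Lox is also a gene of fibroblasts. Of the 3 fibroblast genes among the markers, Col1a1 was called lower in SmoA2 than in wild type (-0.50, limma adjusted p = 0.0293), while Dcn (-0.14) and Lum (0.38) did not pass, and their part in the Lox difference was not tested.

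No gene of the other 3 lists was called against wild type in either line. Of 13 genes of pyruvate entry and the lactate shuttle, Pdk2 had the smallest p in SmoA2 against wild type (0.19 ± 0.06, limma adjusted p = 0.143). Of the same 13, Pdk4, a pyruvate dehydrogenase kinase induced by fasting, was lower in SmoA2 than in Smo/Smo (-0.33 ± 0.06, limma adjusted p = 0.0322), at 9.33, 9.29 and 9.18 in SmoA2 mice, 9.66, 9.61 and 9.52 in Smo/Smo mice, and 9.33, 9.32 and 9.39 in wild-type mice. Smo/Smo was the group that stood apart, and the call was lost in each of the 9 fits without 1 array, with adjusted p from 0.0523 to 0.125. Among 6 genes of the pentose phosphate pathway Tkt had the smallest p (0.16 ± 0.08, limma adjusted p = 0.379), and among 16 of the tricarboxylic acid cycle Cs did (-0.11 ± 0.05, limma adjusted p = 0.353). At an unadjusted p under 0.05, 3 of the 13, 0 of the 6 and 0 of the 16 passed in SmoA2 against wild type, and the same numbers did in Smo/Smo against wild type.

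**Figure D4:**
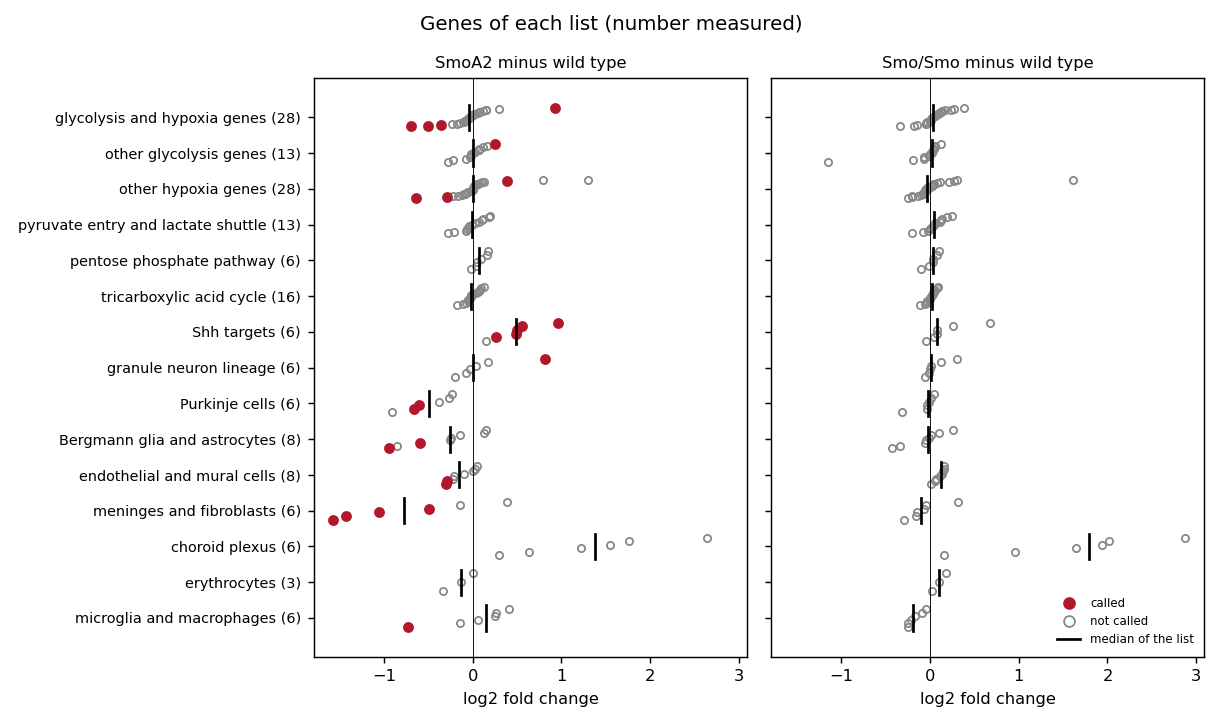
Log2 fold change of SmoA2 against wild type and of Smo/Smo against wild type for each measured gene of the 28, of the 5 wider pathway lists, and of the Shh target and cell marker lists (points, filled where called by limma), with the median of each list as a line. The medians of the 28 genes and of the 5 pathway lists lie between -0.04 and 0.07 in both panels, while the choroid plexus list, with no called gene, lies far to the right.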

How the data were processed

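The deposited values are probe set intensity on a linear scale, made by the authors with RMA per the submitters' processing notes, with no version. They had been planned for as log2 values, and the log2 of each was taken before every test. Of 38385 probe sets, 24478 carried 1 gene symbol, 65 several and 13842 none in the platform annotation. They gave 19147 genes, 3958 of them with more than 1 probe set. No read depth exists for arrays.

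All 9 arrays were fitted in 1 model in R 4.3.3 with limma 3.58.1 (lmFit, eBayes), with 1 mean for each group. The ± of a log2 fold change is its standard error in that fit, and intervals are at 95%. SD is given for 3 arrays per group. The code was tested on simulated data. Python 3.11.15 with matplotlib 3.10.9 drew the figures.

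Genes named in full were Hk1, Hk2, every called gene of the 35 and the 6 with the smallest F p. From the wider lists came each called gene or the one with the smallest p, plus Gli1, Ptch1, Ccnd1, Atoh1, Ttr and at most 3 called markers per cell type. The genes, lists and tests were chosen with earlier results of these data known. Replicate numbers follow accession order and pair nothing. Promoters and motifs were read from RefSeq, GRCm38.p6. Symbols Ero1l and Epb4.2 were updated to Ero1a and Epb42. Probe sequences were not used. The alternatives were another probe set per gene, the mean or each of the probe sets, a filter at the 25th percentile of mean intensity, 2 normalizations, array weights, robust eBayes with an intensity trend, only the groups compared, sex as a covariate, a threshold of 0.01, and leaving out arrays.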

Additional observations from a re-analysis of the deposited data

Results flagged for a closer look

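The SmoA2 and Smo/Smo lines differed from each other in 2 of the 28 genes by the test of the difference itself. Hk2 was 0.92 higher on the log2 scale in SmoA2 than in Smo/Smo, above in 3 of 3 arrays against each of the 3, with limma adjusted p = 0.00174. Slc16a1 was -0.44 in SmoA2 minus Smo/Smo, lower in 3 of 3 arrays, with limma adjusted p = 0.00774. The Smo/Smo samples carry another code prefix in their titles, and the labels do not say what it marks. For both genes, genotype and whatever the prefix marks cannot be told apart. The rule for these flags did not look for single outlying samples in groups of 3 arrays. Wild-type replicate 3 and SmoA2 replicate 3 are described above, and fits that left out arrays are given with the genes.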

How the results depend on the processing

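Hk2 was called in SmoA2 against wild type and against Smo/Smo under all 12 other settings and without any 1 array. The number of the 28 genes called in SmoA2 against wild type, 4 in the main analysis, was 2 with the second probe set of a gene, 2 with the mean of its probe sets, 2 with only the groups compared, 1 at a threshold of 0.01, 1 without both wild-type replicate 3 and SmoA2 replicate 3, and 1 to 4 without 1 array. Among all genes, the 515 calls became 235 with only the groups compared, 187 at 0.01, 215 without both replicates and 234 to 445 without 1 array. In Smo/Smo against wild type 0 of the 28 were called throughout, while the 71 calls among all genes became 162 with array weights, 42 with only the groups compared, 42 with sex as a covariate, 19 at 0.01, 38 without both replicates and 21 to 65 without 1 array. In SmoA2 against Smo/Smo the 2 calls became 1 with the second probe set and 2 to 3 without 1 array, and the 490 calls among all genes became 795 with an intensity trend and robust eBayes, 231 with only the groups compared, 142 at 0.01, 296 without both replicates and 170 to 467 without 1 array. By the F test the 4 calls became 2 with the second probe set, 2 with the mean, 1 at 0.01, 2 without both replicates and 2 to 4 without 1 array, and the 553 among all genes became 933 with the intensity trend, 830 with array weights, 185 at 0.01, 270 without both replicates and 268 to 476 without 1 array. The F test was not run with only the groups compared. The second probe set turned Slc16a1 in SmoA2 against wild type to 0.20 and Pdk4 in SmoA2 against Smo/Smo to 0.11, both not called, and that of Slc16a1 lay within background. The cause of these changes was not tested, beyond the fewer arrays or stricter threshold that some settings bring. No paired analysis was possible because the replicate numbers only name arrays in accession order.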

Other observations

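Some genes of the wider lists gave large differences that were not called; these were singled out after their values were seen. Car12, a carbonic anhydrase related to Car9, had log2 intensities of 8.11, 8.07 and 8.17 in SmoA2 mice, 8.57, 8.34 and 8.40 in Smo/Smo mice, and 7.60, 7.51 and 5.34 in wild-type mice. Its low array was wild-type replicate 3, the one low in Ttr. Adpgk, the hexose kinase that uses ADP, had 9.55, 9.60 and 9.43 in SmoA2 mice, 9.48, 6.92 and 8.67 in Smo/Smo mice, and 9.55, 9.51 and 9.44 in wild-type mice. The Smo/Smo arrays were spread over more than all the others, and Smo/Smo minus wild type was -1.15 ± 0.50 (limma adjusted p = 0.569).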
